A study of Mus musculus with 8 samples.

Results

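The genes described here are 10 members of the NF-kB system: the subunit genes *Nfkb1*, *Nfkb2*, *Rela* and *Relb*, the regulators *Nfkbia*, *Ikbkb*, *Ikbkg* and *Tnfaip3*, and the adhesion genes *Icam1* and *Vcam1*. They were taken by symbol from the gene counts of cultured primary lung fibroblasts (pFBs), and all 10 were found among the 27324 entries with at least 1 count and among the 14150 genes tested. The libraries come from female mice of a C57/black background, 4 from wild type (WT1 to WT4) and 4 from homozygous mice that carry human IGFBP5 (HOMO1 to HOMO4). Per the study's text, the human transgene is a knock-in driven by the Ef1a1 promoter, and the pFBs grew out of minced lung in serum-containing medium without any treatment. Ages and the number of mice behind the libraries are not given in the sources used here, so p-values measure the spread between libraries, which may be technical.

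NF-kB is a family of dimeric transcription factors. Their subunits are held in the cytoplasm by IkB proteins until the IkB kinase, whose catalytic and scaffold parts include the products of *Ikbkb* and *Ikbkg*, marks IkB for degradation and frees the dimer to enter the nucleus. *Nfkbia* and *Tnfaip3* are target genes that feed back to end the signal, and *Icam1* and *Vcam1* are target genes that put docking sites for leukocytes on the cell surface. In fibroblasts the pathway is known for its response to tumor necrosis factor and interleukin-1. Much of its control acts on protein location and modification, which transcript counts do not show.

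RefSeq promoter windows of 300 bases, running from 250 bases before to 50 bases after an annotated start site (GRCm38.p6), were at hand for 6 of the 10 genes, *Nfkb2*, *Rela*, *Nfkbia*, *Ikbkg*, *Tnfaip3* and *Icam1*. They were searched on both strands for the NF-kB decamer consensus and for the shorter GGAANTTCC. Both motifs were chosen after these windows had been seen, and their matches may overlap. The 6 genes had 12 windows, of which 6 held either motif, and 1 site lies in 2 overlapping *Nfkb2* windows. Over all genes, either motif was in 8.93% of 32817 windows (8.46% for the decamer and 0.926% for GGAANTTCC), and because the motifs were chosen on these windows nothing is read from the difference. *Rela* and *Ikbkg* held neither in any of their windows. Of the windows below, 3 belong to the target genes whose levels are compared in detail, and that of *Nfkb2* to the one subunit gene with matches. Capitals mark the matches, and each window is written 5′ to 3′ along its gene.

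The *Icam1* window lies on the plus strand at chr9:21015690-21015989, the *Nfkbia* window on the minus strand at chr12:55492598-55492897, the *Tnfaip3* window on the minus strand at chr10:19015361-19015660 and the *Nfkb2* window on the plus strand at chr19:46304487-46304786.
*Icam1*: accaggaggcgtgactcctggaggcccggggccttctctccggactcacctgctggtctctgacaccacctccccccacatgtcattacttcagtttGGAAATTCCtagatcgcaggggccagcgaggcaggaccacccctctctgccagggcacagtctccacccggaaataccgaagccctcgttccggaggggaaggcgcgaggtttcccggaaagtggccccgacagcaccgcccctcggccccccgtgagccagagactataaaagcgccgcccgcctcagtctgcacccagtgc
*Nfkbia*: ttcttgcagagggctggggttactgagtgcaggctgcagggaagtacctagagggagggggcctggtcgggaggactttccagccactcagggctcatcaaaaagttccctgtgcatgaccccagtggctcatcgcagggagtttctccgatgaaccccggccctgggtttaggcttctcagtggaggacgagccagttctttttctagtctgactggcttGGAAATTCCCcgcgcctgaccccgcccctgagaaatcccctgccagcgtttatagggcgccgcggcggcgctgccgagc
*Tnfaip3*: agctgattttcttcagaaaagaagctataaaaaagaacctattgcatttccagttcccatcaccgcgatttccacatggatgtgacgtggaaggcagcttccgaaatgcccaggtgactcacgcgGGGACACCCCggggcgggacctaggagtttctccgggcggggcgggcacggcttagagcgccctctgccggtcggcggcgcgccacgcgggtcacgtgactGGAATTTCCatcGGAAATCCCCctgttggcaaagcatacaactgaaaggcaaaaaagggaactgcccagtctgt
*Nfkb2*: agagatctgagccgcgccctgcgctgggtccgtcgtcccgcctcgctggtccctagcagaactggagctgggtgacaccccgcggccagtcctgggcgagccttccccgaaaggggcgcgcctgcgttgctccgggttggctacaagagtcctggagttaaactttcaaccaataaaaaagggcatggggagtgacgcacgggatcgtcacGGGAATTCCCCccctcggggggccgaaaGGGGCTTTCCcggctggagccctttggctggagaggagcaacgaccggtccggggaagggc

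The *Icam1* window held 1 match, to GGAANTTCC, which began at position -153 from the start site. In *Nfkbia* both motifs matched at -29. *Tnfaip3* held matches at -125, -24 and -12. In the printed *Nfkb2* window the decamer matched at 3 places, beginning at -39, -38 and -11. A match is a run of letters, and binding was not tested.

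Between 17236521 and 31987790 reads were counted per library, and 3 counts, taken as the floor of counting, corresponded to 0.0908 to 0.172 CPM (read counts scaled to library size after TMM normalization), a floor that covers counting error only. Each of the 10 genes had at least 81 counts in every library. Some libraries of one genotype were nearly alike. WT1 with WT2, HOMO1 with HOMO2 and HOMO3 with HOMO4 had biological coefficients of variation from 4.71 to 7.65%, against 30 to 56.4% for other pairs of one genotype. The summed level of 9 macrophage markers was 2133 CPM in WT3 and 1236 CPM in WT4, 137 and 164 CPM in WT1 and WT2, and 59.3 to 198 CPM in HOMO, and none of the 9 was called or was at 0 throughout a genotype. *Ptprc*, a marker of leukocytes, was at 13.4 and 22.1 CPM in WT3 and WT4 and at most 2.71 CPM in the other libraries. Fibroblast markers summed to 12937 to 16618 CPM in WT and 14002 to 24381 CPM in HOMO, with 2 of 9 called lower in HOMO, and *Pdgfra* was between 127 and 392 CPM in every library. Endothelial markers, the list of a cell type known for *Icam1* and *Vcam1*, summed to 2.31 to 8.13 CPM in WT and 2.63 to 5.88 CPM in HOMO, and *Pecam1* had at most 8 counts in any library. Epithelial markers summed to 0.225 to 1.55 CPM in WT and 1.6 to 14.5 CPM in HOMO. *Epcam* had 45 counts in HOMO4, 1 each in WT4 and HOMO2, and 0 in WT1 to WT3, HOMO1 and HOMO3. Mesothelial markers summed to 50.7 to 149 CPM in WT and 63.7 to 94.4 CPM in HOMO. Smooth muscle and pericyte markers summed to 80.5 to 306 CPM in WT and 64.4 to 113 CPM in HOMO. Of these lists, 1 of 2 tested epithelial markers was called higher in HOMO, 1 of 6 smooth muscle and pericyte markers was called lower, and no endothelial or mesothelial marker was called. In bulk samples, fewer cells of a type and less RNA per cell cannot be told apart.

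In the comparison of genotypes, *Icam1* was called lower and *Ikbkb* higher in HOMO, 2 of the 10 genes, where 12.1% of all tested genes were called in either direction, 5.94% higher and 6.18% lower. The call rule was an edgeR quasi-likelihood F test with a Benjamini-Hochberg adjusted p under 0.05 over all tested genes and an absolute log2 fold change above 0.6. *Nfkbia* passed the first criterion and not the second. The levels of HOMO and WT did not overlap in 3 of the 10 genes, *Icam1*, *Ikbkb* and *Nfkbia*, against 27.3% of all tested genes. The median log2 fold change over the 10 genes was -0.34, beside -0.04 over all tested genes. Read against these percentages, neither count is a result about the 10 genes as a set. When the near-identical libraries were summed to 3 WT and 2 HOMO units, 0 of the 10 genes and 0 of 16130 tested genes were called by edgeR, while 2 of the 10 and 2057 of all had an unadjusted p under 0.05.

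**Figure D1:**
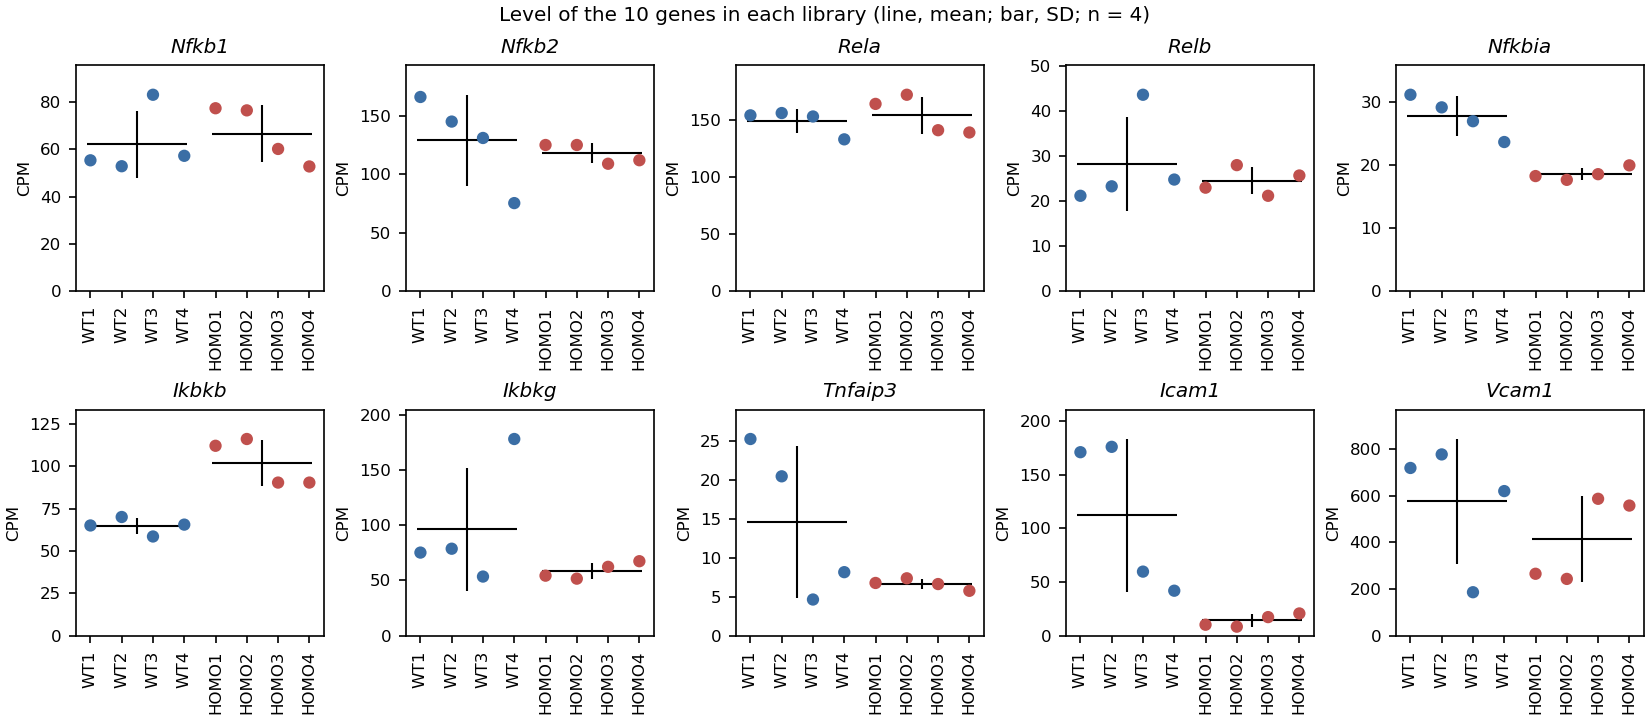
CPM of each of the 10 genes (y axis) in each library (x axis), WT in blue and HOMO in red, with a horizontal line at the mean and a vertical bar of 1 SD to each side over 4 libraries. HOMO lies below all WT libraries in *Icam1* and *Nfkbia* and above them in *Ikbkb*, and single WT libraries stand away from the rest in *Ikbkg* (WT4, 178 CPM) and *Vcam1* (WT3, 186 CPM).

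The subunit genes were all expressed, and none was called. *Rela* encodes p65, the subunit with a strong activation domain of the common heterodimer. On chromosome 19 from 5637483 to 5648130, it was measured at 154, 156, 153 and 133 CPM in WT1 to WT4 and at 164, 172, 141 and 139 CPM in HOMO1 to HOMO4. The genotypes overlapped within a narrow range, and the log2 fold change was 0.05 (95% interval -0.23 to 0.33, edgeR adjusted p = 0.816). Both bounds lie within 0.6 of 0, in a model that takes the 8 libraries as independent.

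*Nfkb1* encodes p105, the precursor of the DNA-binding subunit p50. It lies on chromosome 3 from 135584655 to 135691547 and was measured at 55.4, 52.9, 83.1 and 57.3 CPM in WT1 to WT4 and at 77.4, 76.5, 60.2 and 52.8 CPM in HOMO1 to HOMO4. WT3 was the highest of all libraries, HOMO1 and HOMO2 came next, and the rest lay close together. HOMO differed from WT by 0.10 on the log2 scale (95% interval -0.34 to 0.55, edgeR adjusted p = 0.756). Genes of chromosome 3 stood higher in WT3 as a group, with a median of 0.33 on the log2 scale over the mean of the 8 libraries, and with the chromosome's median taken off in each library *Nfkb1* was highest in HOMO1 and HOMO2.

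*Nfkb2* encodes p100, which restrains RelB until it is processed to p52 in the non-canonical pathway. It lies on chromosome 19 from 46304320 to 46312385, and its levels were 166, 145, 131 and 75.4 CPM in WT1 to WT4 and 125, 125, 109 and 112 CPM in HOMO1 to HOMO4. WT libraries lay on both sides of HOMO, WT1 highest and WT4 lowest. Between genotypes the log2 fold change was -0.14 (95% interval -0.65 to 0.37, edgeR adjusted p = 0.71). *Nfkb2* shares 6.52% of its exon bases with *Psd* on the opposite strand, and 11.6% with the predicted gene AC114539.1, also opposite. *Psd* was itself called higher in HOMO, at 14.6 to 21.8 CPM in WT and 26.1 to 42.1 CPM in HOMO (log2 fold change 0.96, edgeR adjusted p = 0.0222). Strand use in the counting is not given in the sources used here, and the part of *Psd* reads in the *Nfkb2* value was not tested.

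*Relb* encodes the partner of p52. It lies on chromosome 7 from 19606217 to 19629438 and was counted at 21.2, 23.3, 43.6 and 24.8 CPM in WT1 to WT4 and 23, 28, 21.2 and 25.7 CPM in HOMO1 to HOMO4. Apart from WT3, all libraries lay between 21.2 and 28 CPM, and genes of chromosome 7 stood 0.38 higher on the log2 scale in WT3 as a group. The log2 fold change of -0.20 (95% interval -0.76 to 0.35, edgeR adjusted p = 0.597) changed sign to 0.08 without WT3. *Rel*, the gene of the remaining subunit, c-Rel, was counted 375, 426, 110 and 238 times across WT1 to WT4 and 287, 426, 277 and 260 times across HOMO1 to HOMO4, a log2 fold change of -0.06 (edgeR adjusted p = 0.933).

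Divided by the median length of their coding transcripts, the subunit genes stood in the same order in every library. In CPM per kb, *Rela* made up 39.8 to 48.7% of the sum of the 4 subunit genes in WT and 45.2 to 46.1% in HOMO. *Nfkb2* followed at 32.1% ± 6.79 (SD, n = 4) in WT and 30.3% ± 1.03 (SD, n = 4) in HOMO. *Nfkb1* held 13.9% ± 2.78 in WT and 15% ± 1.43 in HOMO, and *Relb* 10.2% ± 3.13 and 9% ± 1.03 (SD, n = 4 each). The shares of these genes overlapped between the genotypes, and the HOMO libraries were closer to each other than the WT libraries were. In WT1 to WT4, *Nfkb1* held 11.5, 11.5, 16.6 and 16.1% and *Relb* 7.13, 8.21, 14.1 and 11.3%, so the ranges overlapped although *Nfkb1* was above *Relb* inside each library.

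*Ikbkb* encodes IKKbeta, the kinase that phosphorylates IkB proteins in the canonical pathway, and was the one gene of the 10 called higher in HOMO. The gene spans 22659212 to 22706589 on chromosome 8 (GRCm38). It was measured at 65, 70, 58.5 and 65.5 CPM in WT1 to WT4 and at 112, 116, 90.3 and 90.3 CPM in HOMO1 to HOMO4. All HOMO libraries lay above all WT libraries, HOMO1 and HOMO2 furthest. Its mean was 64.7 ± 4.71 CPM in WT and rose to 102 ± 13.6 CPM in HOMO (SD, n = 4 each), a difference of 0.66 on the log2 scale (SE 0.13, 95% interval 0.35 to 0.96, edgeR adjusted p = 0.0181). The 790 tested genes of chromosome 8 had a median log2 fold change of 0.37, which lies within that interval, and 17.1% of them were called higher against 5.94% of all tested genes. With the chromosome median taken off, the change of *Ikbkb* was 0.28, and in each library separately the genotypes still did not overlap, by a narrow margin (-0.25 to -0.03 in WT and -0.03 to 0.26 in HOMO on the log2 scale, to 2 decimals). *Ikbkb* was not called without HOMO1 (0.61, edgeR adjusted p = 0.072) or without HOMO2 (0.59, edgeR adjusted p = 0.0725), and with near-identical libraries summed the change was 0.69 (edgeR adjusted p = 0.361).

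*Ikbkg* encodes NEMO, the scaffold of the IkB kinase. Its position is chromosome X, 74393290 to 74453854. Its levels were 75.2, 78.7, 53.5 and 178 CPM in WT1 to WT4 and 54.3, 51.6, 62.3 and 67.4 CPM in HOMO1 to HOMO4. WT4 was higher than any other library, and WT3 lay within the range of HOMO. The log2 fold change of -0.71 (95% interval -1.49 to 0.07, edgeR adjusted p = 0.189) was not called and became -0.23 without WT4 (edgeR adjusted p = 0.384). *Ikbkg* shares 5.15% of its exon bases with *G6pdx* on the opposite strand. *G6pdx* was measured at 161, 157, 58.5 and 74.8 CPM in WT1 to WT4 and 66.5 to 90.6 CPM in HOMO. The part of *G6pdx* reads in the *Ikbkg* value was not tested. Tested genes of chromosome X as a group deviated by -0.04 in WT4 on the log2 scale.

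**Figure D2:**
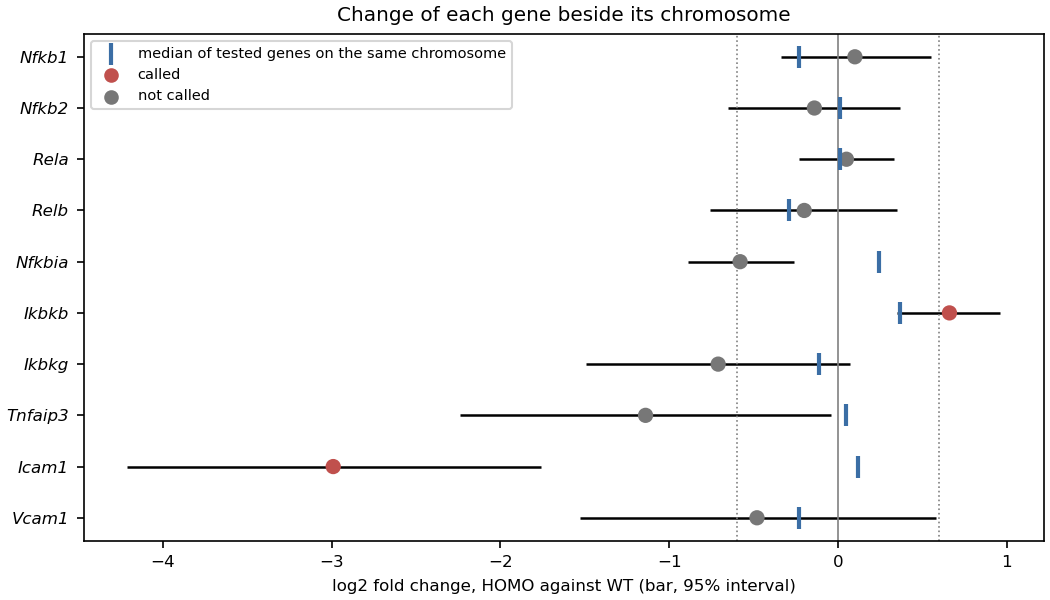
Log2 fold change of HOMO against WT (x axis) for each gene (y axis), with its 95% interval as a bar, called genes in red, and a blue mark at the median of all tested genes on the same chromosome; dotted lines mark 0.6 in either direction. The interval of *Ikbkb*, at 0.66, includes the chromosome 8 median of 0.37, while those of *Icam1*, at -2.99, and *Nfkbia*, at -0.58, lie on the other side of 0 from the medians of 0.12 and 0.24.

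*Nfkbia* encodes IkBalpha, the inhibitor that NF-kB itself induces. The gene spans 55489410 to 55492647 on chromosome 12 (GRCm38). It was measured at 31.2, 29.2, 27 and 23.7 CPM in WT1 to WT4 and 18.3, 17.7, 18.6 and 20 CPM in HOMO1 to HOMO4. Every HOMO library lay below every WT library, and the HOMO libraries were within a range of a few CPM. The means were 27.8 ± 3.19 CPM in WT and 18.6 ± 0.988 CPM in HOMO (SD, n = 4 each), a difference of -0.58 on the log2 scale (SE 0.14, 95% interval -0.89 to -0.26, edgeR adjusted p = 0.0316), short of the fold threshold. Genes of chromosome 12 had a median of 0.24 in the same comparison, the other direction, and stood 0.33 higher in WT4 but 0.27 to 0.34 lower in WT1 to WT3 on the log2 scale. Relative to that median the change of *Nfkbia* was -0.81, and WT4 then came next to HOMO at -0.26, beside 0.57 to 0.80 in the other WT libraries and -0.57 to -0.28 in HOMO. Without WT4 the change was -0.64, and *Nfkbia* was called (edgeR adjusted p = 0.0188). Without each of the other libraries but WT3, its adjusted p was above the threshold, up to 0.113.

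*Tnfaip3* encodes A20, an enzyme that edits ubiquitin chains and restrains signaling to NF-kB. Its position is chromosome 10, 19000910 to 19015657. WT1 to WT4 held 449, 478, 81 and 211 *Tnfaip3* reads, or 25.3, 20.5, 4.65 and 8.17 CPM, and 6.78, 7.38, 6.64 and 5.77 CPM in HOMO1 to HOMO4. WT1 and WT2 were high, WT4 was just above HOMO, and WT3 was the lowest of all, so the genotypes overlapped. HOMO differed from WT by -1.14 on the log2 scale (95% interval -2.24 to -0.04, edgeR adjusted p = 0.143), not a call. Without WT3 it was -1.43 (edgeR adjusted p = 0.0298), and without WT3 and WT4, the libraries with high macrophage markers and a choice made after the data were seen, -1.78 (edgeR adjusted p = 6.75e-04). That last comparison rests on WT1 and WT2, which are near-identical.

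*Icam1* encodes the ligand of the leukocyte integrins LFA-1 and Mac-1 and showed the largest change of the 10 genes. The gene spans 21015985 to 21028817 on chromosome 9 (GRCm38). WT1 to WT4 held 3041, 4102, 1041 and 1082 *Icam1* reads and HOMO1 to HOMO4 held 229, 278, 341 and 413, which are 171, 176, 59.7 and 41.9 CPM in WT and 10.2, 8.41, 17.3 and 20.7 CPM in HOMO. WT fell into a high pair, WT1 with WT2, and a lower pair, WT3 with WT4, and even the lowest WT library was above the highest of HOMO. HOMO differed from WT by -2.99 on the log2 scale (SE 0.54, 95% interval -4.21 to -1.76, edgeR adjusted p = 0.0123), or 7.94-fold lower in HOMO. Without WT3 and WT4, a choice made after the data were seen, it was -3.62 (edgeR adjusted p = 0.00119). That comparison rests on WT1 and WT2, which are near-identical. The part of macrophage RNA in the values of WT3 and WT4 was not tested. *Icam1* missed the call without HOMO1 (-2.86, edgeR adjusted p = 0.0508) and with the near-identical libraries summed (-2.70, edgeR adjusted p = 0.302). It shares 11.7% of its exon bases with *Gm47079*, annotated on the opposite strand, which had at most 3 counts in any library.

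*Vcam1* encodes the ligand of integrin alpha4beta1 and was the most abundant of the 10 genes per length. Its position is chromosome 3, 116109949 to 116129688. It was measured at 718, 776, 186 and 619 CPM in WT1 to WT4 and 265, 243, 586 and 557 CPM in HOMO1 to HOMO4. WT3 was the lowest library, HOMO1 and HOMO2 were little higher, and HOMO3 and HOMO4 were close to WT4. The log2 fold change of -0.48 (95% interval -1.53 to 0.58, edgeR adjusted p = 0.512) was not called, and its interval is too wide to set *Vcam1* apart from a large decrease or from no change. Without WT3 it was -0.77 (edgeR adjusted p = 0.147). *Gm43109*, which shares 0.688% of the exon bases of *Vcam1* on the opposite strand, had at most 18 counts.

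In CPM per kb of transcript, the mean levels in WT were 192 for *Vcam1*, 54.8 for *Rela*, 44.2 for *Icam1*, 41.2 for *Nfkb2*, 17.6 for *Nfkbia*, 17.5 for *Nfkb1*, 17.1 for *Ikbkb*, 14.3 for *Ikbkg*, 12.8 for *Relb* and 3.34 for *Tnfaip3*. In HOMO the order was *Vcam1* (138), *Rela* (56.7), *Nfkb2* (37.5), *Ikbkb* (27), *Nfkb1* (18.7), *Nfkbia* (11.8), *Relb* (11.1), *Ikbkg* (8.74), *Icam1* (5.57) and *Tnfaip3* (1.52). *Icam1* moved from the third place to the ninth. Neighbours in WT from *Nfkbia* to *Relb* had overlapping ranges over the libraries. The same held for *Icam1*, which spanned 16.5 to 69.3, with both *Rela* (48.9 to 57.4) and *Nfkb2* (24 to 53 CPM per kb). In HOMO the neighbours from *Nfkbia* to *Icam1* overlapped, and the others did not.

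Ratios of a pair of genes inside one library do not depend on how libraries are scaled. After the values had been seen, 6 such ratios were formed from CPM per kb, and because of that choice they are given as a description without a test. The inhibitor *Nfkbia* relative to *Rela* stood at 0.347, 0.322, 0.305 and 0.307 for WT1 to WT4 and at 0.191, 0.177, 0.227 and 0.247 for HOMO1 to HOMO4, 1.53-fold lower in HOMO. *Ikbkb* relative to *Ikbkg* stood at 1.54, 1.59, 1.95 and 0.658 for WT1 to WT4 and at 3.66, 4, 2.58 and 2.39 for HOMO1 to HOMO4, 2.32-fold higher in HOMO. In both ratios the genotypes did not overlap, and WT4 was farthest from HOMO in the second. The level of a ratio, but not its fold change between genotypes, depends on the transcript lengths used.

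*Icam1* relative to *Vcam1* stood at 0.281, 0.268, 0.379 and 0.0799 for WT1 to WT4 and at 0.0454, 0.0409, 0.0348 and 0.0439 for HOMO1 to HOMO4, 5.32-fold lower in HOMO. WT4 came close to HOMO here, while WT3, where *Vcam1* was lowest, had the highest ratio. *Tnfaip3* relative to *Rela*, *Nfkb2* relative to *Nfkb1* and *Relb* relative to *Rela* overlapped between the genotypes. *Nfkb2* relative to *Nfkb1* was 3.41 and 3.12 in WT1 and WT2, 1.78 and 1.49 in WT3 and WT4, and 1.83 to 2.41 in HOMO, so WT libraries lay on both sides of HOMO.

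**Figure D3:**
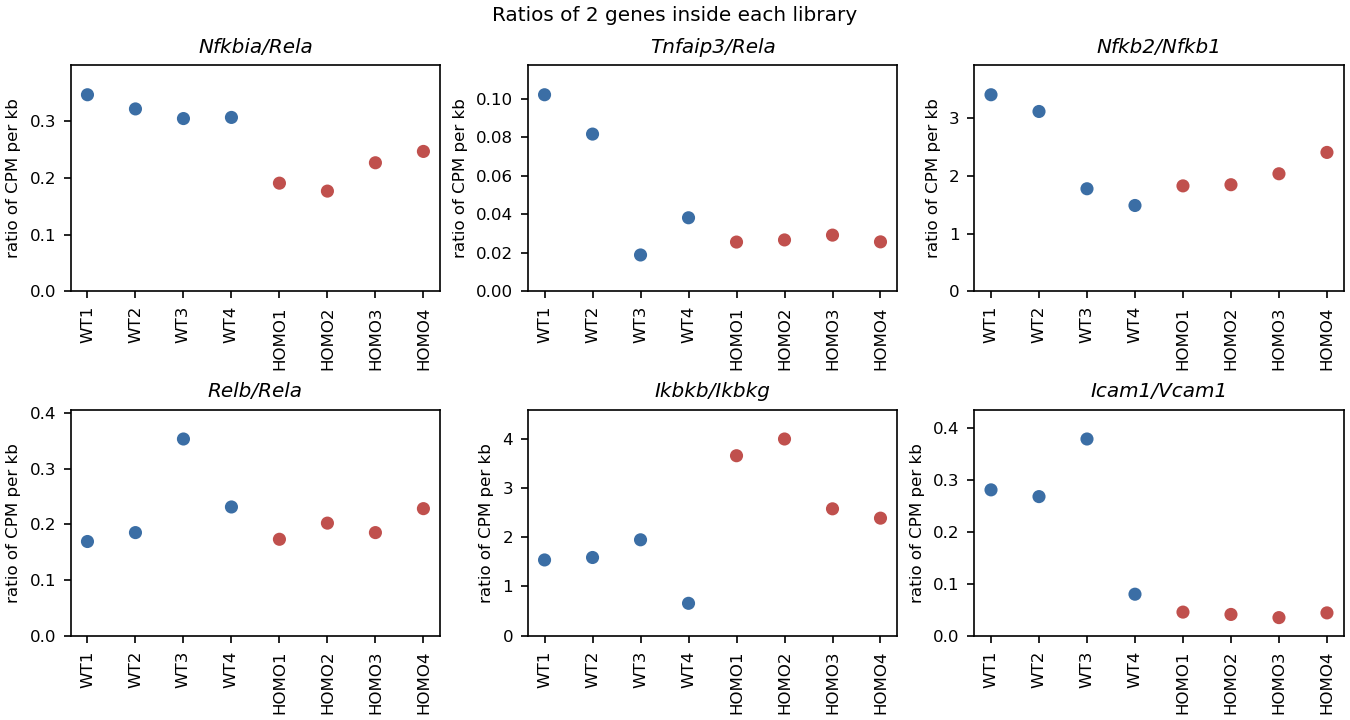
Ratio of CPM per kb of transcript of 2 genes (y axis, from 0) in each library (x axis), WT in blue and HOMO in red. *Nfkbia*/*Rela* and *Icam1*/*Vcam1* are lower and *Ikbkb*/*Ikbkg* higher in every HOMO library than in any WT library, and WT4 at 0.0799 is the WT library nearest to HOMO in *Icam1*/*Vcam1*.

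The rest of the pathway was described by 6 lists holding 98 genes, of which 84 were tested and 12 called, 4 higher and 8 lower in HOMO. That share can be read against the 12.1% of all tested genes. The untested genes had too few counts for the count filter (filterByExpr) or none. Of these, only *Ccl20*, *Traf1* and *Cadm1* did not overlap between the genotypes, each lower in HOMO. *Ccl20* had 6 to 18 counts in WT and 0 to 1 in HOMO. *Traf1* had 6 to 20 and 0 to 3, and *Cadm1* 8 to 80 and 0 to 4. These differences were not tested. Among the other subunits, IkB proteins and kinases, 2 of 10 were called, and the median log2 fold change was 0.05, beside -0.04 over all tested genes. *Nfkbie*, which encodes IkBepsilon, was measured at 13.9, 13, 21.6 and 13.8 CPM in WT1 to WT4 and 7.4, 7.99, 6.13 and 5.01 CPM in HOMO1 to HOMO4. All HOMO libraries were below WT, at a log2 fold change of -1.23 (SE 0.24, edgeR adjusted p = 0.0163). *Nfkbid*, which encodes a nuclear IkB protein, rose by 1.92 (SE 0.52, edgeR adjusted p = 0.043) on the log2 scale from few counts, 4, 6, 11 and 15 in WT1 to WT4 and 15, 53, 49 and 35 in HOMO1 to HOMO4. *Nfkbid* passed the count filter through its HOMO libraries, not its WT libraries, and its call carries that limit.

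Of 21 tested genes that pass signals from receptors to the IkB kinase, *Myd88* alone was called. *Myd88* encodes the adaptor of Toll-like and interleukin-1 receptors and was measured at 40.5, 40.8, 39.3 and 43.4 CPM in WT1 to WT4 and 83.5, 87.1, 58.3 and 67.4 CPM in HOMO1 to HOMO4, a log2 fold change of 0.85 (SE 0.15, edgeR adjusted p = 0.0118). The WT libraries were nearly level, and each HOMO library lay above them. The median log2 fold change of this list was 0.02, beside -0.04 over all tested genes, of which 12.1% were called. Of 14 other negative regulators, with a median of -0.16, 2 were called: *N4bp1* rose by 1.09 (SE 0.24, edgeR adjusted p = 0.0231) and *Nkiras1*, whose product binds IkB proteins and slows their degradation, fell by 0.96 (SE 0.27, edgeR adjusted p = 0.0484) on the log2 scale. *N4bp1* was measured at 72.4 to 125 CPM in WT and 164 to 264 CPM in HOMO, and *Nkiras1* at 8.62 to 18.4 CPM in WT and 6.02 to 7.05 CPM in HOMO, both without overlap. *N4bp1* lies on chromosome 8, like *Ikbkb*, where the median was 0.37.

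Of 26 listed cytokine, enzyme and survival targets, 20 were tested and 3 called, all lower in HOMO: *Il6*, *Ccl7* and *Csf1*, which encode interleukin-6, a monocyte chemokine and the macrophage growth factor M-CSF. Over all tested genes, 6.18% were called lower and 5.94% higher, and the other tested targets of this list changed in both directions without a call. *Ccl7* was measured at 109, 96.6, 197 and 34.1 CPM in WT1 to WT4 and 14, 17.7, 25.2 and 25.1 CPM in HOMO1 to HOMO4. Its lowest WT library was WT4, as in *Icam1*, and its highest was WT3. *Ccl7* differed by -2.41 on the log2 scale (SE 0.48, edgeR adjusted p = 0.0162). *Il6* was measured at 15.5, 13.6, 4.82 and 27.4 CPM in WT1 to WT4 and 1.47, 1.91, 2.48 and 1.75 CPM in HOMO1 to HOMO4. Here WT3 was the lowest WT library and WT4 the highest, the reverse of *Ccl7*, and every HOMO library was lower (log2 fold change -3.01, SE 0.49, edgeR adjusted p = 0.00855). *Csf1*, the most abundant of the 3, was measured at 1981 to 3766 CPM in WT and 932 to 1122 CPM in HOMO (log2 fold change -1.40, SE 0.22, edgeR adjusted p = 0.00789). Over all 20 targets the log2 fold changes ranged from -3.01 to 2.88 around a median of -0.22, and 11 of the 20 had an unadjusted p under 0.05, beside 4573 of all 14150 tested genes.

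Among 12 tested adhesion molecules of the immunoglobulin type other than *Icam1* and *Vcam1*, 4 were called, and the median was -0.59. Over all tested genes, 12.1% were called and the median was -0.04. *Nectin1*, a cell junction protein, was measured at 50.6, 43.2, 57.5 and 53.2 CPM in WT1 to WT4 and 12.3, 11.6, 21.9 and 24.3 CPM in HOMO1 to HOMO4, and fell by 1.54 (SE 0.26, edgeR adjusted p = 0.00994) on the log2 scale. Its relative *Nectin3* fell by 0.80 (edgeR adjusted p = 0.0482), from 16.6 to 26.9 CPM in WT to 9.58 to 15.9 CPM in HOMO, and *Bcam*, a laminin receptor, by 1.75 (edgeR adjusted p = 0.025), the latter with WT4 at 7.16 CPM inside the HOMO range of 5.05 to 7.32 CPM. *Cadm3*, a further cell adhesion molecule, rose by 4.50 (SE 0.60, edgeR adjusted p = 0.00448), from 3, 4, 15 and 4 reads across WT1 to WT4 to 142, 224, 137 and 203 across HOMO1 to HOMO4. *Cadm3* passed the count filter through its HOMO libraries, not its WT libraries, so its place among tested genes depended on its high HOMO level. None of the 7 tested integrins that bind the products of *Icam1* or *Vcam1* was called by edgeR, while 2 had an unadjusted p under 0.05, a share near that of all tested genes (4573 of 14150). *Itgb1* had the smallest adjusted p of these, 0.0778 (edgeR), at a log2 fold change of -0.57, which was also the median of the 7.

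**Figure D4:**
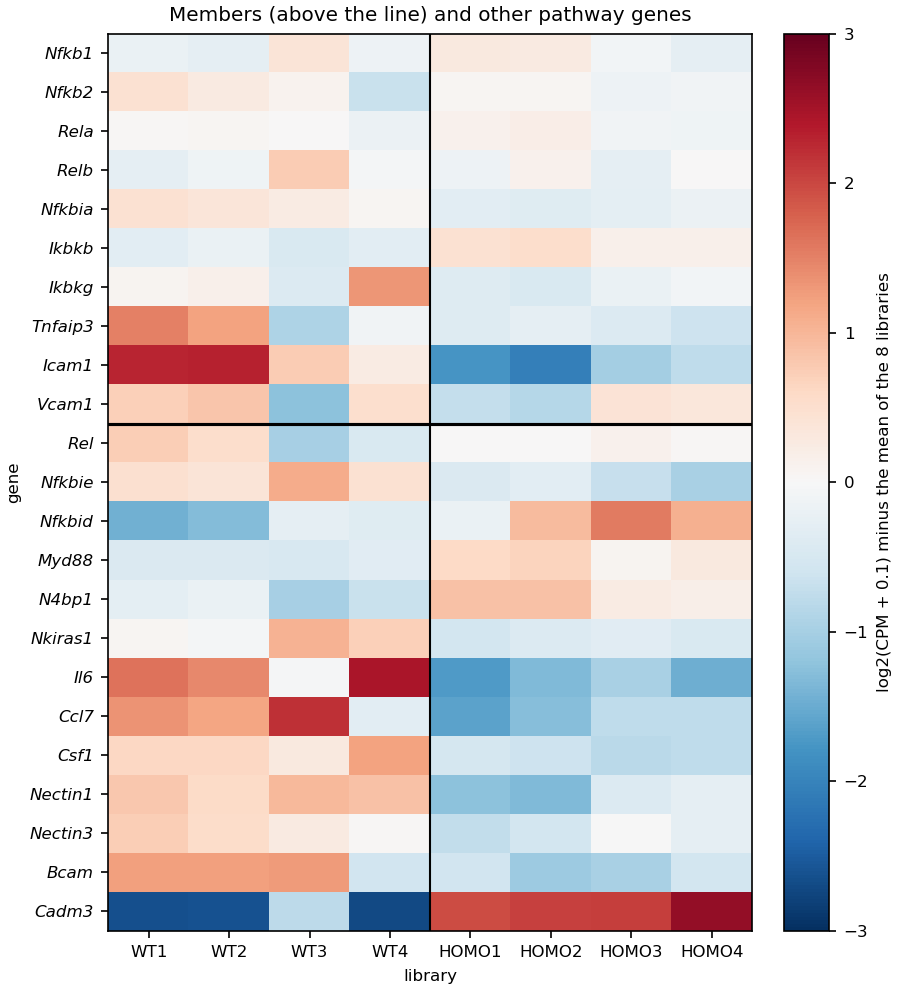
Log2(CPM + 0.1) of each gene (y axis) minus its mean over the 8 libraries, in red above and blue below, for each library (x axis), with the 10 genes above the line and *Rel* and the called genes of the pathway lists below it. *Icam1* is above its mean in all WT libraries and below it in all HOMO libraries, whereas *Tnfaip3* and *Vcam1* are lowest in WT3 among the WT libraries.

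Across analysis settings, *Icam1* was called in 15 of 18 alternative fits, with log2 fold changes from -3.62 to -2.69, and *Ikbkb* in 12 of 18, from 0.50 to 0.73. *Nfkbia* and *Tnfaip3* were called in 3 of 18 each, from -0.70 to -0.52 and from -1.78 to -0.74. *Vcam1* was called in 1 of the 18 fits, and *Nfkb1*, *Nfkb2*, *Rela*, *Relb* and *Ikbkg* in 0 of them. The direction changed in at least 1 fit for *Nfkb2*, *Rela* and *Relb*, and in none of the 18 for the other 7 genes.

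**Figure D5:**
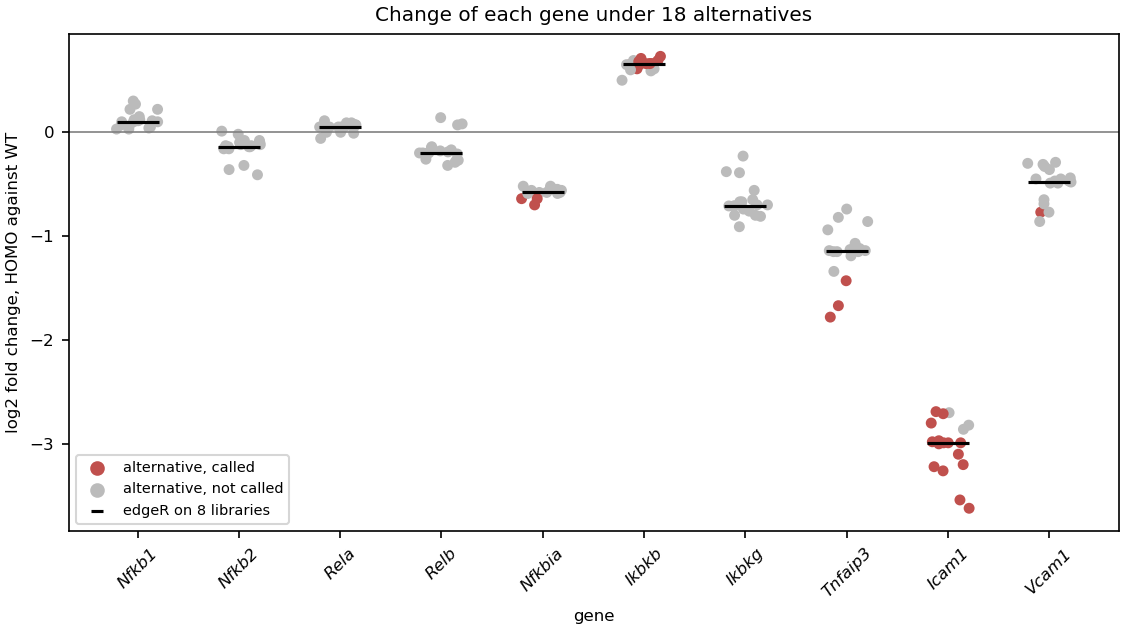
Log2 fold change of HOMO against WT (y axis) of each gene (x axis) under 18 alternative fits, red where the gene was called and grey where it was not, with the edgeR value on the 8 libraries as a black line. *Icam1* lies between -3.62 and -2.69 in every fit, and *Rela* between -0.06 and 0.11.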

How the data were processed

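Per the study's methods, fastp cleaned the reads, STAR placed them on mm10, and featureCounts gave the read counts of each gene, which the authors deposited without normalization. Versions, the annotation and strand use are not given in the sources used here. All 8 deposited libraries were used, with the group and replicate number of their titles. The deposited counts are labelled "outlierout", and what that label refers to is not given in the sources used here. Counts were compared in R 4.3.3 with edgeR 4.0.16 (TMM, filterByExpr by genotype, quasi-likelihood F test, Benjamini-Hochberg adjustment over 14150 genes), which was also tested on simulated data. The simulated libraries were independent, so that test does not cover near-identical libraries. An SE is the size of the fitted change over the root of its F value. limma 3.58.1, DESeq2 1.42.0, other scalings and filters, a replicate block, summed near-identical libraries and fits without libraries were alternatives. Positions and lengths came from GENCODE M21 (GRCm38, the assembly of mm10), with 14056 tested genes placed. A length is the median over a gene's coding transcripts. Figures were made with Python 3.11.15 and matplotlib 3.10.9.

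The genes and lists were chosen with earlier results of these data known. Named are the 10 genes, *Rel*, and from each pathway list up to 4 called genes or, with none called, the one of smallest adjusted p. *G6pdx*, *Psd* and the predicted genes were named after their exon overlap was seen, and *Ccl20*, *Traf1* and *Cadm1* after their counts were seen. The reads, the human transgene and the study's other assays were not analysed here.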

Additional observations from a re-analysis of the deposited data

Results flagged for a closer look

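In 48 groups of 4 libraries, a library was marked when its gap to the nearest of the others, as a share of the group's range on the log2 CPM scale, exceeded Dixon's 95% critical value, which chance does in about 1 in 20 groups. Of the 10 genes, *Rela* was marked in WT4, at 7.06 against 7.25 to 7.29 in the other WT libraries, and *Vcam1* in WT3, at 7.54 against 9.27 to 9.60. In the pathway lists, *Nfkbie* was marked in WT3 (4.44 against 3.71 to 3.81), *Bcam* in WT4 (2.86 against 4.68 to 4.73) and *Cadm3* in WT3 (-0.07 against -2.04 to -1.94). That rate holds for independent libraries. WT1 with WT2, HOMO1 with HOMO2 and HOMO3 with HOMO4 were near-identical, and a library with so close a neighbour can hardly be marked, so WT3 and WT4 were in practice the libraries open to a mark.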

How the results depend on the processing

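The number of the 10 genes called was 2 and moved to 4 in limma-voom with sample weights (which gave WT3 and WT4 weights of 0.0927 and 0.164), to 0 with near-identical libraries summed and to 0 with the replicate number as a block. The 4 in limma-voom were *Icam1*, *Nfkbia*, *Tnfaip3* and *Vcam1*, while *Ikbkb*, at 0.50, fell below the fold threshold. Of the pathway lists, 12 genes were called, against 23 in DESeq2, 21 in limma-voom, 0 with libraries summed and 24 without WT3 and WT4, a comparison added after the data were seen that rests on near-identical WT libraries. Over all tested genes the 1716 calls became 2913 in DESeq2, 3573 in limma-voom, 0 with libraries summed, 947 with the block and 3117 without WT3 and WT4. Leaving out 1 library gave 0 to 3, 5 to 15 and 507 to 2192 calls, lowest without HOMO1. Without WT3 and WT4, the 10 genes had 3 calls (*Icam1*, *Tnfaip3* and *Nfkbia*, not *Ikbkb*, at 0.60). Same-numbered libraries did not deviate together (correlations -0.124 to 0.0141 across genes). With near-identical libraries in both genotypes, that check cannot tell whether the number marks a pairing. Under the block, *Icam1* was at -2.82 (edgeR adjusted p = 0.0704) and *Ikbkb* at 0.65 (edgeR adjusted p = 0.0509). Directions that reversed belonged to uncalled genes: *Nfkb2* 0.01 without WT1; *Rela* -0.06 in limma-voom, -0.00095 without HOMO2, -0.001 without WT4 and -0.01 without WT3 and WT4; *Relb* 0.07 in limma-voom, 0.08 without WT3 and 0.14 without WT3 and WT4. With 1 library left out, these genes ranged from -0.32 to 0.01, from -0.001 to 0.11 and from -0.32 to 0.08.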
